A study of Mus musculus with 6 samples.

Results

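The genes described here are the laminin chains and the proteins that link laminins into basement membranes, which are Lama2, Lama4, Lama5, Lamb1, Lamb2, Lamb3, Lamc1, Nid1, Nid2 and Hspg2. They were picked by symbol, and all 10 are among the 13283 genes of the deposited table. The list was proposed after the differences between MICT1 KO and control libraries had been seen, so the values of these genes in that comparison are a description, and no p-value is given for any of them. RNA was taken from a Cas9-expressing, immortalized line of mouse brown preadipocytes (BAT cells) after adipogenic differentiation in culture. The control group (Scr, 3 libraries, genotype given as WT) carried a scrambled sgRNA, and the MICT1 KO group (3 libraries, MICT1-CRISPR KO) came from pools transduced with sgRNAs against MICT1, a microprotein of brown fat. Cells of both groups received 10 µM forskolin, which activates adenylyl cyclase, for 6 h on day 6 of differentiation. The labels do not say which sgRNA pool each KO library came from, and both groups derive from the same cell line. The comparison addresses how gene expression differed between MICT1 KO and control cultures after differentiation and forskolin. The paper reports lower expression of adipogenic genes in these knockout cells, so the groups may also differ in differentiation.

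Laminins are the sheet-forming glycoproteins of basement membranes, the thin matrix that surrounds each adipocyte as well as muscle fibres, nerves, vessels and epithelia. Each laminin is a cross-shaped trimer of an α, a β and a γ chain, and the chains are secreted as trimers, with the α chain carrying at its end the LG domains that bind integrins and dystroglycan. Nidogens attach to the short arm of the γ1 chain and to collagen IV, and perlecan, the product of Hspg2, is a large heparan sulfate proteoglycan that binds nidogens, laminins and growth factors.

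Promoter sequence is shown for 4 of these genes, because Lamb1 and Lamb2 encode alternative β chains that changed in opposite directions and because Lama5 and Hspg2 are the longest coding sequences of the list and changed in the same direction. RefSeq windows of 250 bases before to 50 after a transcript start (GRCm38.p6) were at hand for 7 of the 10 genes (8 windows), and each sequence below is the part of the window that lies before every annotated start of its gene. Capitals mark matches on either strand to any of 5 motifs. These are the GC box, which was searched as GGGCGG, and the CCAAT box, which was searched by the letters of its name. The core of a cAMP response element was searched as TGACGT. The TATA box was searched as TATAAA, and the AP-1 site as TGANTCA, with any base at N. The stretches are chr12:31265043-31265145 (plus strand) for Lamb1, chr9:108479612-108479735 (plus strand) for Lamb2, chr2:180225905-180226109 (minus strand) for Lama5 and chr4:137468553-137468750 (plus strand) for Hspg2.
Lamb1: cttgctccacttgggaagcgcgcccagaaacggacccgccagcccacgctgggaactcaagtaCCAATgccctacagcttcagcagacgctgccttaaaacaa
Lamb2: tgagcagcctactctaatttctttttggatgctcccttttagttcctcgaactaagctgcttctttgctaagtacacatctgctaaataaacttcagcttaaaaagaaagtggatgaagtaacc
Lama5: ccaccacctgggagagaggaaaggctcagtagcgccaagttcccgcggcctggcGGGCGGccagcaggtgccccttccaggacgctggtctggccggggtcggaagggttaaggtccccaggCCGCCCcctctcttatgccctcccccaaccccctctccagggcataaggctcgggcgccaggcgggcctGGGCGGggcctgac
Hspg2: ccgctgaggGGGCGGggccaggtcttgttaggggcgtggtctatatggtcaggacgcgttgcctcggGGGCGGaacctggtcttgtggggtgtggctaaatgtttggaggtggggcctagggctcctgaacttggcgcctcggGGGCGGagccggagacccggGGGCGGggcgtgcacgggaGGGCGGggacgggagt

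Over the whole windows, that of Hspg2 held 5 GC boxes and that of Lama5 held 4. At least 1 was found in 35.7% of all 32851 promoter windows. How many windows held 4 or more, or how many would among windows equally rich in G and C, was not counted. The window of Lama5 also held the TGACGT core, outside the stretch printed above, and 7.51% of all windows hold it. The window of Lamb1 held 2 GC boxes and a CCAAT box, a motif found in 37.4% of all windows. The window of Lamb2 held none of the 5 motifs and was 44.0% G and C, against 63.7% for Lamb1, 72.7% for Lama5 and 70.3% for Hspg2. The window of Nid1 held 1 GC box and 1 CCAAT box, that of Lama2 held 1 GC box, and the 2 windows of Lamb3 held none of the motifs. The windows of Lamb3, and almost all of that of Lama2, lie inside the spans given for these genes below. The sequence before the outermost start of these genes was thus not searched. The TATA box (13.6% of all windows) and the AP-1 site (7.81%) were in none of the 8 windows. These are matches of letters in a short stretch, and no binding was measured.

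The deposited values are reads per gene as estimated by the authors and scaled to the library, with an estimated 15437400 to 17917600 reads in a library. Fold changes were fitted with limma-trend on log2(value + 1), and p-values were adjusted (Benjamini-Hochberg) across the 12507 genes that reached a value of 10 in 3 or more libraries. The adipocyte identity of the cells was checked on 10 markers, all of which were lower in MICT1 KO libraries (median log2 fold change -3.51), with a summed value of 125100 to 149200 in Scr and of 14660 to 21250 in MICT1 KO libraries. Adipoq and Ucp1 passed the filter on low values only through the Scr libraries. Adiponectin (Adipoq) was at 733, 468 and 672 in Scr against 7.63, 3.16 and 5.18 in MICT1 KO libraries. For Plin1, which coats lipid droplets, the values were 2922, 2605 and 3029 in Scr against 55.3, 19.0 and 90.2 in MICT1 KO libraries. This loss of adipocyte marker RNA moved with all differences given below, and its part in them was not tested. In RNA of whole cultures, fewer adipocytes and less RNA of a gene per cell cannot be told apart.

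All 10 genes passed the filter on low values and had an adjusted p under 0.05 by limma-trend, 6 lower and 4 higher in MICT1 KO cells, against 56.9% of all genes tested (28.3% lower and 28.5% higher). Because the same comparison was in view when the list was made, nothing is read from this count. The groups did not overlap for any of the 10 genes, and for 62.0% of all genes tested. The fall was at least 2-fold for 4 genes (Lama2, Lama4, Lamb3 and Nid2; 5.76% of all genes tested), and no rise reached 2-fold (7.99% of all genes tested). Their median log2 fold change was -0.74, against -0.0053 over all genes tested. The lower genes were Lama2, Lama4, Lamb1, Lamb3, Lamc1 and Nid2, and the higher genes were Lama5, Lamb2, Nid1 and Hspg2. Each class with more than 1 gene on the list therefore held genes that changed in opposite directions.

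**Figure D1:**
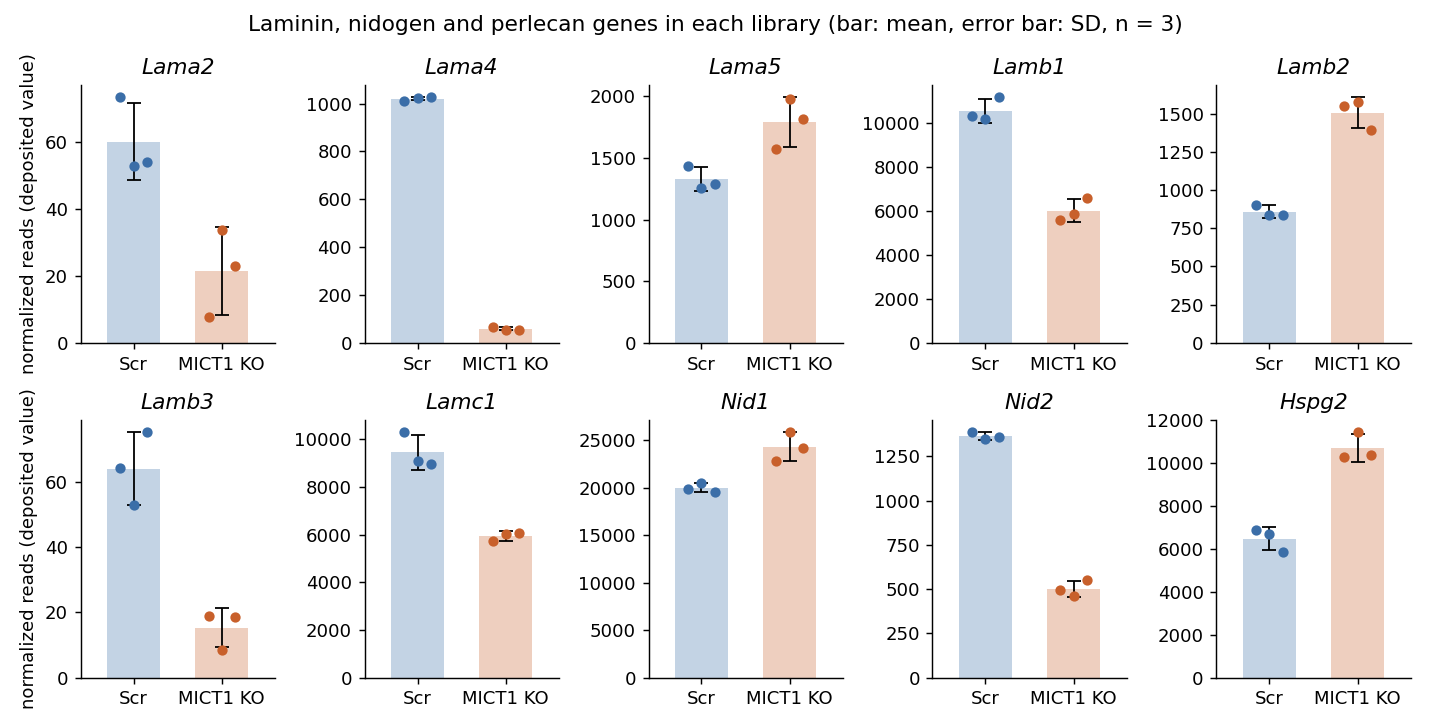
Deposited value (normalized reads, vertical axis starting at 0, own scale per gene) of each of the 10 genes in the 3 Scr and 3 MICT1 KO libraries; points are libraries, bars means and error bars SD. The groups do not overlap for any gene, and Lama4 shows the widest gap, from 1013 to 1026 in Scr to between 54.8 and 65.8 in MICT1 KO libraries.

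Among the α chains, Lama4 showed the largest change of the whole list. Lama4 encodes the α4 chain, which has a truncated short arm and is typical of laminins of vessels, fat and other tissues of mesenchymal origin, and it lies on chromosome 10 from 38965515 to 39110188 (GRCm38, plus strand). The 3 Scr libraries had values of 1013, 1022 and 1026, and the 3 MICT1 KO libraries had 65.8, 54.8 and 56.0. The coefficient of variation among Scr libraries was 0.645%, although 3 values give only a rough measure of spread. The MICT1 KO libraries held 5.77% of the Scr mean, a 17.3-fold fall. The log2 fold change was -4.10 with a standard error of 0.13, the 36th lowest among the 12507 genes tested.

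Lama5 encodes the α5 chain, a long-armed chain common in basement membranes of epithelia and vessels, and lies on chromosome 2 from 180176373 to 180225904 (minus strand). Scr libraries were at 1435, 1252 and 1286, and MICT1 KO libraries were at 1573, 1977 and 1815. The groups came closest between Scr replicate 1 and KO replicate 1. The mean rose 1.35-fold, from 1325 ± 97.3 (SD, n = 3) to 1788 ± 203 (SD, n = 3), with a log2 fold change of 0.43 and a standard error of 0.079.

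Lama2 encodes the α2 chain, the main laminin α chain around muscle fibres and Schwann cells, and lies on chromosome 10 from 26981285 to 27617191 (minus strand). It was listed with few reads, at 73.2, 52.8 and 53.9 in Scr against 7.63, 33.7 and 22.8 in MICT1 KO libraries. KO replicate 1 was the lowest library, and the coefficient of variation reached 61.3% in the MICT1 KO group against 19.1% in the Scr group. The log2 fold change was -1.65 with a standard error of 0.41. It depended on 1 library in size, at -1.07 without KO replicate 1.

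Among the β chains, Lamb1 and Lamb2 moved in opposite directions by almost the same factor. Lamb1 encodes the β1 chain, the widely used β chain of laminins, and lies on chromosome 12 from 31265146 to 31329644 (plus strand). The 3 Scr libraries had values of 10349.9, 10194 and 11196.5, and the 3 MICT1 KO libraries had 5618, 5883 and 6593.5. The mean fell 1.75-fold, and the log2 fold change was -0.81 with a standard error of 0.061.

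Lamb2 encodes the β2 chain, known from the neuromuscular junction, the glomerulus and vessel walls, and lies on chromosome 9 from 108479847 to 108490530 (plus strand). Scr libraries were at 905, 836 and 835, and MICT1 KO libraries were at 1551, 1577 and 1392. All 3 MICT1 KO libraries stood well above the highest Scr library. The mean rose 1.75-fold, from 859 ± 40.0 (SD, n = 3) to 1507 ± 100.2 (SD, n = 3), and the log2 fold change was 0.81 with a standard error of 0.073.

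Lamb3 encodes the β3 chain, which is known mainly from the laminin of epithelial anchoring, where it pairs with the α3 chain. It was listed with few reads, at 64.3, 52.8 and 75.3 in Scr against 19.1, 8.43 and 18.7 in MICT1 KO libraries. The log2 fold change was -2.06 with a standard error of 0.36, and leaving out single libraries gave -2.24 to -1.70. Lamb3 lies on chromosome 1 from 193294353 to 193343878 (plus strand), and GENCODE has transcripts of it that begin further upstream and span G0s2 and Hsd11b1, both on the opposite strand. G0s2, an inhibitor of lipolysis in adipocytes, fell from 4101 ± 599 (SD, n = 3) to 71.7 ± 22.6 (SD, n = 3), and Hsd11b1, which makes active glucocorticoid, fell from 135 ± 12.6 (SD, n = 3) to 10.3 ± 6.52 (SD, n = 3). Whether reads were counted by strand is not given in the sources used here, so the value of Lamb3 is uncertain to that extent.

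Lamc1 encodes the γ1 chain, the partner of both the β1 and the β2 chain in most laminins and the chain that nidogens bind, and lies on chromosome 1 from 153218922 to 153332786 (minus strand). The 3 Scr libraries had values of 10298, 9063 and 8968, and the 3 MICT1 KO libraries had 5709, 6028 and 6067. The fall was 1.59-fold, with a log2 fold change of -0.67 and a standard error of 0.058. All 3 MICT1 KO libraries were below the lowest Scr library, and Lamc1 and Lamb1 fell by similar factors.

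The nidogens, which bridge the laminin and collagen IV networks, split like the β chains. Nid1 lies on chromosome 13 from 13437602 to 13512275 (plus strand) and had the highest values of the list, at 19872, 20482 and 19581 in Scr against 22807, 25852 and 24194 in MICT1 KO libraries. The rise was 1.22-fold, the smallest change of the 10 genes, with a log2 fold change of 0.28 and a standard error of 0.056. The lowest MICT1 KO library was above the highest Scr library, and leaving out single libraries gave log2 fold changes of 0.23 to 0.32.

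Nid2, which encodes the second nidogen, lies on chromosome 14 from 19751257 to 19811787 (plus strand). Scr libraries were at 1389, 1347 and 1358, and MICT1 KO libraries were at 497, 460.4 and 549. The coefficient of variation among Scr libraries was 1.58%, again from only 3 values. Each MICT1 KO library was below all Scr libraries by more than 2-fold. The fall was 2.72-fold, with a log2 fold change of -1.44 and a standard error of 0.081. The end of Nid2 overlaps Rtraf on the opposite strand, which was at 871 ± 119 (SD, n = 3) in Scr against 691 ± 28.7 (SD, n = 3) in MICT1 KO libraries, a smaller difference than that of Nid2.

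Hspg2 encodes perlecan and lies on chromosome 4 from 137468751 to 137570630 (plus strand). The 3 Scr libraries had values of 6886, 6711 and 5864, and the 3 MICT1 KO libraries had 10300.1, 11462 and 10407. The mean rose 1.65-fold, from 6487 ± 546 (SD, n = 3) to 10723 ± 642 (SD, n = 3), with a log2 fold change of 0.73 and a standard error of 0.063. Only Lamb2 had a larger positive log2 fold change within the list.

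**Figure D2:**
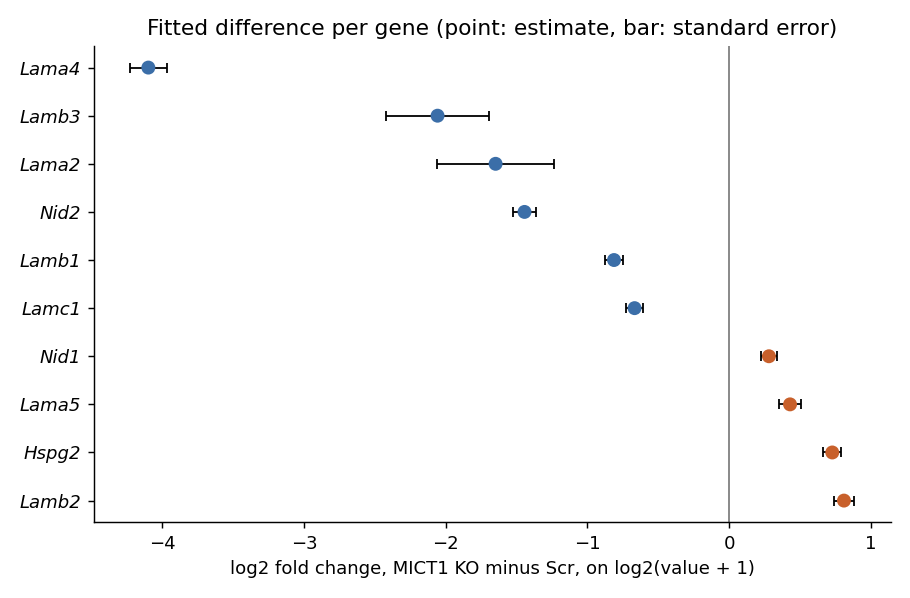
Fitted log2 fold change (MICT1 KO minus Scr, horizontal axis, on log2(value + 1)) of the 10 genes, with standard errors as bars. The estimates run from -4.10 for Lama4 to 0.81 for Lamb2, and the standard errors are widest for Lama2 (0.41) and Lamb3 (0.36), the genes with the lowest values.

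Levels of different genes were compared as RPKM, reads per kilobase of exon after scaling each library to the same summed value. In Scr libraries Nid1 stood highest at 176 ± 3.19 RPKM (SD, n = 3), followed by Lamc1 at 69.8 ± 6.50 and Lamb1 at 65.2 ± 3.53, whose ranges overlapped. Hspg2 followed at 27.7 ± 2.48, Nid2 at 16.1 ± 0.506, Lamb2 at 8.63 ± 0.529, Lama5 at 7.11 ± 0.633 and Lama4 at 5.16 ± 0.0617 RPKM. Lamb3 (0.593 ± 0.107) and Lama2 (0.225 ± 0.0464 RPKM) were below 1 RPKM. Apart from Lamc1 and Lamb1, no gene's range over the Scr libraries overlapped that of the next in order.

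In MICT1 KO libraries Nid1 was again highest, at 214 ± 14.5 RPKM (SD, n = 3). Hspg2 came next at 45.9 ± 2.90 and overlapped with Lamc1 at 44.0 ± 1.72, above Lamb1 at 37.3 ± 3.30. Lamb2 (15.2 ± 0.969) and Lama5 (9.63 ± 1.14 RPKM) stood above Nid2, which had been above both in Scr libraries and was at 5.95 ± 0.541 RPKM. Lama4 was at 0.299 ± 0.0287 RPKM and had moved towards the least expressed genes, Lamb3 (0.142 ± 0.0556) and Lama2 (0.0804 ± 0.0494). Its range stayed above that of Lamb3, while the ranges of Lamb3 and Lama2 overlapped with each other. Some of this order rests on the length, since per coding length Lama4 (11.4 RPKM) stood above Lamb2 (9.73) and Lama5 (7.26) in Scr libraries, and Lamc1 (75.4) and Lamb1 (67.2) stood above Hspg2 (49.98 RPKM) in MICT1 KO libraries.

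**Figure D3:**
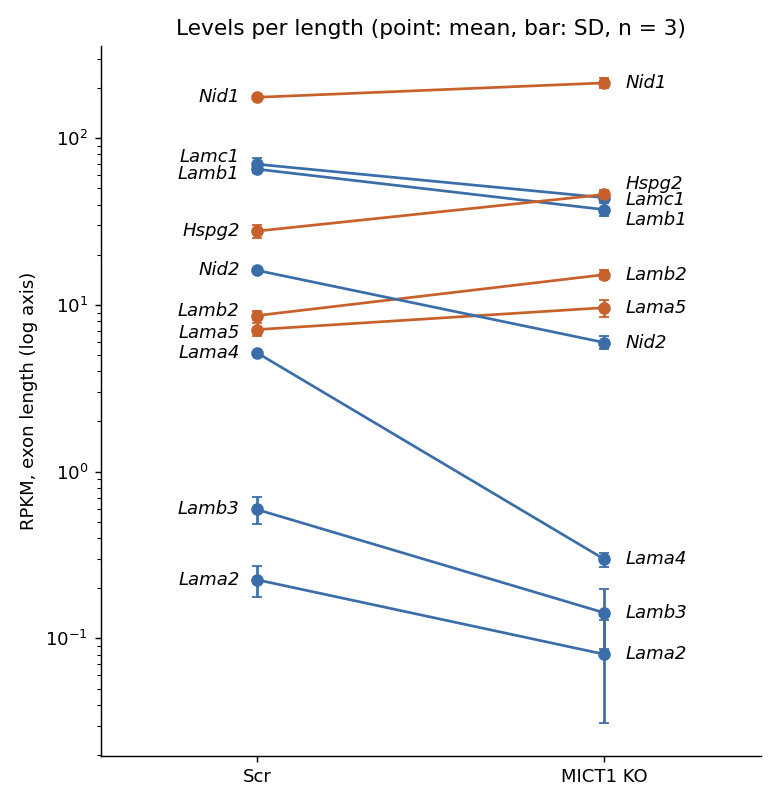
Mean RPKM (vertical log axis, error bars SD over 3 libraries) of each gene in Scr and MICT1 KO libraries, joined by a line that is orange where the mean was higher and blue where it was lower in MICT1 KO. The lines of Hspg2 and Lamc1 meet in MICT1 KO at 45.9 and 44.0 RPKM, and that of Lama4 drops from 5.16 to 0.299 RPKM.

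Within the α chains on the list, Lama4 made up 39.1%, 42.8% and 42.2% of the summed RPKM in Scr against 3.78%, 2.52% and 2.80% in MICT1 KO libraries. Lama5 made up 56.8% ± 1.71 (SD, n = 3) in Scr against 96.2% ± 0.261 (SD, n = 3) in MICT1 KO libraries, and Lama2 1.79% ± 0.261 and 0.771% ± 0.416. The α-chain RNA was thus shared between Lama4 and Lama5 in control cells and was almost entirely Lama5 in MICT1 KO cells. Which of them led in Scr libraries depends on the length used, since with the coding length (5448 bases for Lama4 and 11154 for Lama5, in place of 12068 and 11388 bases of exon) Lama4 held 60.0% and Lama5 38.0%. The coding length gave 6.32% for Lama4 and 92.4% for Lama5 in MICT1 KO libraries, so the change between groups had the same direction.

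Lamb1 made up 86.8%, 87.6% and 88.4% of the β-chain RPKM in Scr against 68.7%, 69.5% and 74.2% in MICT1 KO libraries. The share of Lamb2 was 11.6% ± 0.819 (SD, n = 3) in Scr against 28.9% ± 2.97 (SD, n = 3) in MICT1 KO libraries, while Lamb3 stayed under 1% in each library. Lamb1 remained the leading β chain in all 6 libraries, at 7.57 ± 0.608 times the RPKM of Lamb2 in Scr and 2.47 ± 0.377 times in MICT1 KO libraries (SD, n = 3). For the nidogens, the share of Nid2 was 8.40% ± 0.251 in Scr and 2.71% ± 0.331 in MICT1 KO libraries (SD, n = 3).

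The chain classes also stood at different levels to each other. The summed β chains were close to Lamc1, at 1.07 ± 0.107 times its RPKM in Scr and 1.20 ± 0.0254 times in MICT1 KO libraries (SD, n = 3). The α chains on the list summed to far less, 0.179 ± 0.00676 times Lamc1 in Scr and 0.227 ± 0.0193 times in MICT1 KO libraries. With the coding length the order of these α-chain values turned around, to 0.160 in Scr and 0.141 in MICT1 KO libraries, so no direction is given for this ratio. Nid1 per Lamc1 went from 2.53 ± 0.206 to 4.87 ± 0.204 and Hspg2 per Lamc1 from 0.398 ± 0.0268 to 1.05 ± 0.0539 (SD, n = 3), and the libraries of the groups did not overlap in either ratio. Per coding length, Hspg2 per Lamc1 was 0.252 in Scr and 0.663 in MICT1 KO libraries.

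**Figure D4:**
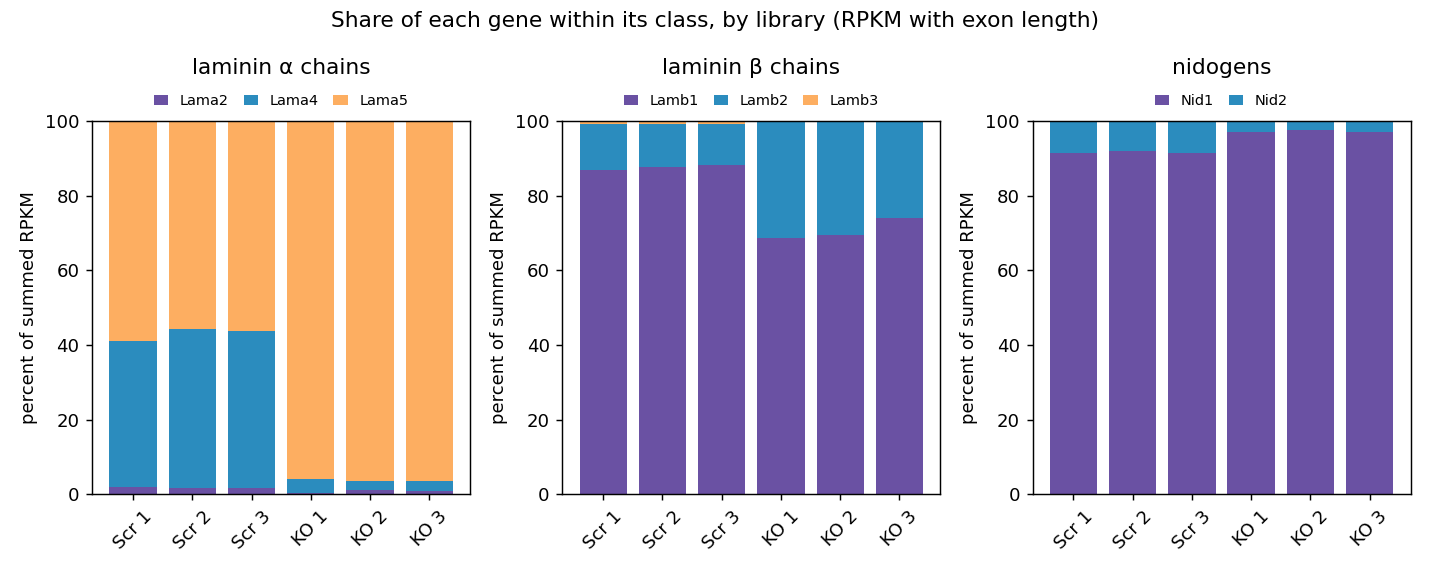
Share of each gene in the summed RPKM of the laminin α chains, the laminin β chains and the nidogens (vertical axis in percent, from 0 to 100) in each of the 6 libraries. Lama4 takes 39.1% to 42.8% of the α chains in Scr and 2.52% to 3.78% in MICT1 KO libraries, and Lamb2 takes a larger share of the β chains in each MICT1 KO library than in any Scr library.

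The other genes of basement membranes were taken as 7 lists, in which 90 genes were tested and 61 had an adjusted p under 0.05 by limma-trend. Over all genes tested the share was 56.9% (28.3% lower and 28.5% higher), and each count below stands against these shares. The lists were chosen with earlier results of these data known, so their counts and p-values are a description. Of the remaining laminin-family chains, 3 of 5 were higher and 1 lower (median log2 fold change 0.59). Lama3 (log2 fold change 1.94, adjusted p = 0.00224 by limma-trend), whose product pairs with that of Lamb3 in epithelial laminin, rose while Lamb3 fell. Lama3 passed the filter on low values only through the MICT1 KO libraries, where it was at 33.4, 23.2 and 23.8 against 3.96, 9.27 and 6.11 in Scr. The value of Lamb3 was also low and is uncertain as given above, so nothing is read from the opposite directions of this pair. Ntn1, a secreted guidance protein with a laminin-like head, rose (1.36) and Ntn5 fell (-3.22, adjusted p = 2.93e-06 by limma-trend). Most MICT1 KO libraries of Ntn5 were below the value that the filter requires, so Ntn5 passed it through the Scr libraries. Lama1 and Lamc3 were not analysed here.

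Among other structural components, 7 of 19 were lower and 6 higher (median -0.40), so that this list was mixed in direction like the laminins. The collagen IV chains Col4a1 (log2 fold change -1.42) and Col4a2 (-1.33), which form the second network of basement membranes, and Col15a1 (-3.32) fell most, with adjusted p of at most 3.89e-13 by limma-trend. The largest rises were those of Tinagl1 (1.66), Fbln2 (1.39), a fibulin that binds nidogens and laminins, and Agrn (0.64), a heparan sulfate proteoglycan that binds laminin, with adjusted p of at most 1.17e-06 by limma-trend. Agrn and Hspg2 thus were both higher, and Col4a1, Col4a2, Lamb1 and Lamc1 all lower, but Lama5 and Lamb2 were higher. Of 2 further collagens named after their values were seen, Col7a1 was higher (0.41, with overlapping groups). The other, Col18a1, had a log2 fold change of -0.16 with an adjusted p of 0.239 by limma-trend.

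Of 12 genes for laminin receptors, 5 were lower and 3 higher (median -0.047). The integrin α subunits on this list fell, at -1.64 for Itga6, -1.11 for Itga7 and -0.71 for Itga3 (adjusted p of at most 3.40e-05 by limma-trend). Of the listed β subunits, Itgb1 rose by 0.31. Itgb4, named after its values were seen, had low values and a log2 fold change of 0.81 with an adjusted p of 0.229 by limma-trend. The syndecans, membrane heparan sulfate proteoglycans, were mixed, with rises of Sdc2 (0.83) and Sdc3 (0.49). Of the other syndecans, named after their values were seen, Sdc1 fell (-0.53, adjusted p = 2.01e-08 by limma-trend) from 28017 to 19400 in mean value, the highest of the family, and Sdc4 had a log2 fold change of 0.0094 with an adjusted p of 0.909. Dag1, the gene of dystroglycan, had a log2 fold change of -0.043 with an adjusted p of 0.52 by limma-trend. In the dystrophin-glycoprotein complex 3 of 9 genes were lower and 4 higher (median -0.18), with rises of Sgcd (1.32), Sgcb (0.64) and Sntb2 (0.45) and falls of Sntb1 (-2.21), Sspn (-1.23) and Utrn (-0.27), each with an adjusted p of at most 0.00366 by limma-trend. Sntb1 passed the filter only through the Scr libraries.

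The enzymes that build the laminin-binding sugar of dystroglycan were 5 lower and 4 higher of 16 tested (median 0.097). B4gat1 (0.37) and Dpm2 (0.31) rose, and Dpm1 (-1.21), Pomgnt2 (-0.81) and Dpm3 (-0.41) fell, with adjusted p of at most 0.0152 by limma-trend. Dpm2 was past the threshold in all fits but that without Scr replicate 1 (0.23) and Dpm3 in all but that without Scr replicate 3 (-0.31). The enzymes of heparan sulfate, the sugar chain that perlecan and agrin carry, were 7 higher and 4 lower of 20 (median 0.045). Hpse, which cleaves these chains, rose by 2.91 and Extl2 by 0.70, and Hs6st2 (-1.52), Extl3 (-0.55) and Ndst1 (-0.52) fell, with adjusted p of at most 0.000843 by limma-trend. Extl1 (1.91, adjusted p = 0.022 by limma-trend) passed the filter only through the MICT1 KO libraries and lost its call without Scr replicate 3 (1.41). Without KO replicate 2, where Extl1 did not pass the filter, 4 of these enzymes were higher.

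Of 9 proteases that act on basement membrane proteins or their regulators, 8 were higher and 1 was lower (median 0.94), against 28.5% higher and 28.3% lower over all genes tested. Like the other lists, this one was chosen with earlier results of these data known, so nothing is read from this count. The largest rises were those of Plau (2.91), Mmp3 (2.16) and Plat (1.43), with adjusted p of at most 2.44e-11 by limma-trend. Mmp9 was the exception, with a log2 fold change of -1.41 and an adjusted p of 0.0468 by limma-trend. Its libraries were at 9.89, 40.8 and 34.6 in Scr against 14.3, 12.6 and 3.11 in MICT1 KO libraries. The groups of Mmp9 overlapped, and its call was lost without KO replicate 3 (-0.81), Scr replicate 2 or Scr replicate 3.

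**Figure D5:**
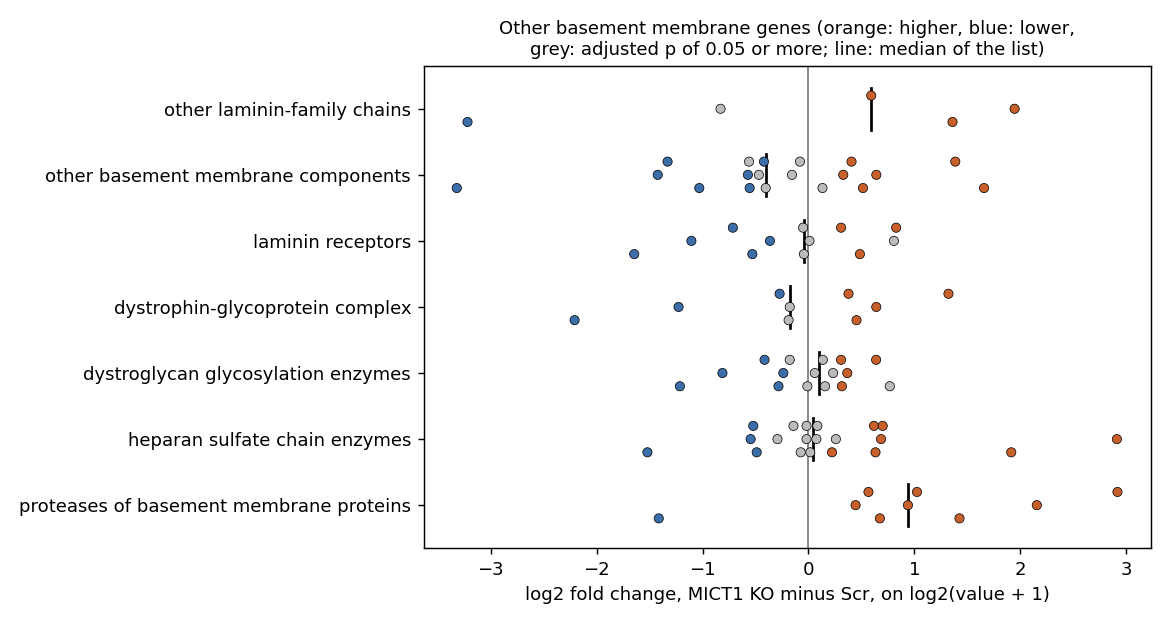
Log2 fold change (MICT1 KO minus Scr, horizontal axis) of each tested gene in the 7 other lists of basement membrane genes, orange where higher and blue where lower with an adjusted p under 0.05, grey otherwise, with the median of each list as a black line. The protease list has 8 of 9 genes to the right of 0, and the other structural components range from -3.32 for Col15a1 to 1.66 for Tinagl1.

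Laminins are also made by cell types other than adipocytes, so the markers of those that a culture could hold were read beside the laminin values. Of the preadipocyte markers, 2 of 4 tested were lower, Dlk1 (log2 fold change -3.47) and Pdgfra (-0.19, with overlapping groups), and 2 were higher, Ly6a (1.39) and Pdgfrb (0.48). The summed value of 6 markers was 4365 to 5016 in Scr and 4715 to 4915 in MICT1 KO libraries. Of the endothelial markers only Cdh5 was analysed here, at 5.94, 12.1 and 8.14 in Scr against 33.4, 30.6 and 25.9 in MICT1 KO libraries (log2 fold change 1.71, adjusted p = 0.00275 by limma-trend). Most Scr libraries of Cdh5 were below the value that the filter requires, so Cdh5 passed it through the MICT1 KO libraries. Pericyte markers were 1 lower and 1 higher of 2 tested (summed value of 3 markers 642 to 801 in Scr and 654 to 735 in MICT1 KO libraries), and 1 of 4 macrophage markers was higher, Cd14 (summed values 267 to 384 and 516 to 639). Of the mean macrophage sum (324 in Scr and 594 in MICT1 KO libraries), Cd14 held 192 and 444. Cd68, Csf1r and Mrc1 were not called. For skeletal muscle 1 of 3 was lower, Ttn, which passed the filter only through the Scr libraries (summed values 72.2 to 92.0 and 56.9 to 99.2), and for Schwann cells 1 of 2, Mbp (summed value of 3 markers 55.4 to 76.3 and 29.0 to 37.9). Pecam1, Myod1, Sox10 and Epcam were not analysed here. The part of these cell types in the laminin values was not tested.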

How the data were processed

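RNA-seq was measured in 6 libraries, 3 labelled control (Scr) and 3 labelled MICT1 KO, which were assigned to groups and replicate numbers from the sample titles. The authors deposited 1 normalized signal value for each gene and library. Their methods describe strand-specific libraries and alignment to mm10 (GRCm38) in Partek, and the submitters' processing notes also name STAR and DESeq2. The counting model, its use of strand and the annotation are not given in the sources used here. Low values (under 20) fell within 0.01 of a multiple of 1 step per library in 88.8% to 90.3% of cases. The signal was therefore treated as estimated reads over a size factor, and no count test was run.

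Limma-trend had been tried on simulated data with far fewer changed genes than were called here, so that trial does not cover these data. The groups were compared on log2(value + 1) by limma-trend (limma 3.58.1, R 4.3.3) in the 12507 genes that reached a value of 10 in 3 or more libraries. The p-values were two-sided and adjusted (Benjamini-Hochberg) across these genes, with a threshold of 0.05. RPKM used the summed value of a library and the union of exons in GENCODE vM21 (found for 13142 of 13283 genes, 212 of them through another symbol). Positions are from RefSeq on GRCm38.p6. The members and the gene lists were chosen with earlier results of these data known. The 10 member genes are all named, and of each other list up to 3 of the largest rises and 3 of the largest falls past the threshold, with any gene that alone or with 1 other passed against the direction of its list. Some genes that this rule names are not reported here. Alternatives covered the pseudocount, the filter on low values, the scaling, limma-voom, blocking on the replicate number, leaving out single libraries, and the coding length in place of the exon length. The targeted gene was not analysed here, and the knockout labels were thus not checked on it. The labels do not say whether replicates were separate cultures, so p-values measure only the spread between these samples, which may be technical.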

Additional observations from a re-analysis of the deposited data

How the results depend on the processing

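The 10 laminin and linker genes were refitted in 8 other settings and in 6 fits that left out a single library. Each gene kept its direction and its side of the threshold in every refit that tested it (138 values over genes and refits). Lama2 and Lamb3 were not tested with the filter at a maximum of 4 RPKM, which left 8 of the 10 genes, all past the threshold. The number of genes called over the whole table lay between 5474 (filter at 4 RPKM) and 7150 (no filter), was 7055 with the replicate number as a block, and was 6340 to 6596 when single libraries were left out. The share of calls that were higher was 50.2%, and at most 54.5%, with upper-quartile scaling. Same-numbered libraries did not deviate together (correlations of -0.024, -0.015 and 0.064 across genes), so the numbers were not taken to pair the samples, and the block changed no call among the 10 genes.

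Several list counts were small and moved with the filter at 4 RPKM, which tested fewer genes. It gave 1 higher and 0 lower of the other laminin-family chains, 2 higher and 1 lower of the dystrophin-glycoprotein complex and 3 lower of the dystroglycan enzymes. Mmp9 was the only protease called lower, and that count was 0 with library size scaling, with limma-voom, with upper-quartile scaling and with the filter at 4 RPKM. When single libraries were left out, the proteases had 0 to 1 lower, the dystroglycan enzymes 3 to 5 lower and the heparan sulfate enzymes 4 to 6 higher. The filter on low values still required 3 libraries in these fits, so a gene that had passed through 1 group only could go untested. Extl1, for example, was tested in 3 of the 6 fits without a single library. Other causes of these moves were not tested. In place of exon length, coding length gave shares of 60.0% (Scr) and 6.32% (MICT1 KO) for Lama4, 38.0% and 92.4% for Lama5, and 1.27% for Lama2 in MICT1 KO libraries. For Lamb1 it gave 91.5% and 79.4%, for Lamb2 7.59% and 20.3%, for Nid1 94.3% and 98.2% and for Nid2 5.72% and 1.81%. Values under 100, as for Lama2 and Lamb3, rest on few reads, and the standard errors of these genes were the widest of the 10.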
